A study of Drosophila melanogaster with 8 samples.

Results

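SPARC, His2Av, Tl, scrib and amon lie in a stretch of chromosome arm 3R of Drosophila melanogaster that runs from CG43117 to Cpr97Ea, and 34 measured genes of this stretch are described here, of 8662 measured genes in all. A gene counted as measured when the brightest of its probe sets that carry 1 gene symbol had a mean signal above 38 over all 8 arrays. The stretch was selected on the differences of wild-type EYA from control and from the mutants in these same arrays, since many of its genes were lower in heads carrying the wild-type EYA transgene. Those differences are therefore a description; where counts of limma calls in them are given, they stand only beside the same count over all tested probe sets and test nothing. The annotation lists 85 genes between these ends, of which 72 are protein-coding, 10 are long non-coding RNAs, 2 are tRNAs and 1 is a miRNA. Of the 64 genes that had a probe set with a single symbol, 34 were above the level threshold and 30 were at or below it, and the other 21 annotated genes had no such probe set. Just inside the threshold lay Tb (mean signal 42.8) and Nep5 (49.9), and just outside it lay TwdlM (36.4) and TwdlK (35.8).

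The study measured RNA from adult heads on 8 Affymetrix Drosophila Genome 2.0 arrays, 2 for each of 4 groups. The control group was the strain W1118, without driver or transgene. In the EYA groups Hsp-GAL4, a driver under a heat shock promoter, was combined with a transgene: UAS-EYA-wildtype in the wild-type group, UAS-EYA-D493N in the next and UAS-EYA-E728Q in the last. EYA (eyes absent) works with DNA-binding partners in the transcription of eye-development genes and is itself a protein phosphatase, and the study gives D493N as a change that lowers its phosphatase activity and E728Q as one that leaves almost none. Flies of all groups were raised at 25 °C, heat-shocked for 1 h at 37 °C and left to recover for 3 h at 25 °C, so the control heads received the same heat shock. Heads of males and females were pooled, 200 heads in 4 lots of 50 went into an RNA preparation, and 2 µg of RNA was labelled. The labels do not say whether the arrays of a group came from separate cultures, so every error below measures only the spread between these arrays. Control and EYA groups differ in the driver, the transgene and any other difference of strain at once, and these cannot be told apart. Both mutant groups carry the same driver and the same kind of transgene as the wild-type group. Any other difference between the fly lines of these groups goes with the form of EYA, and these cannot be told apart either. In such bulk RNA, fewer cells of a type and less RNA per cell cannot be told apart.

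The stretch holds genes of unlike function. SPARC encodes a collagen-binding glycoprotein of basement membranes, His2Av the variant histone that serves in the fly as both H2A.Z and H2A.X, and Tl the receptor Toll, which acts in dorsoventral patterning and in immunity and whose ligand is the product of spz. Scribble, the product of scrib, is a scaffold of the basolateral side of epithelial cells and of synapses, and amon encodes a prohormone convertase that cuts neuropeptide precursors. Neighbours on a fly chromosome need not share a function or a pattern of expression.

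The 2 arrays of a group correlated with r between 0.981 (EYA D493N) and 0.991 (wild-type EYA). These r cover the normalised log2 signals of the 11261 tested probe sets, the brightest 60% of the non-control ones. The median deposited signal was 100 on every array. The 3' to 5' ratio of the eIF-4a control probe sets ran from 2.51 to 4.05 and was highest on the second D493N array, and that of GAPDH ran from 1.72 to 2.05. The probe set annotated to eya read 991 and 918 in the controls, 916 and 915 with wild-type EYA, 1240.4 and 1554 on the D493N arrays, and 1386 and 1140.3 on the E728Q arrays. Whether the probes of that set lie inside the transgenes was not established, so these signals check no label; they were no higher with wild-type EYA than in the controls. Markers of photoreceptors (4 of 4 genes with a probe set), neurons (4 of 4), glia (2 of 2), head fat body (5 of 5) and haemocytes (6 of 6) were above the level threshold, as were 2 of 4 ovary and embryo markers and 1 of 4 testis and accessory gland markers, the last at mean signals of 9.79 to 42.8.

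Across the 34 genes, signal with wild-type EYA had a median of 62.8% of that with the mutants, against 94.5% over all 11261 tested probe sets. On the log2 scale the median difference of the members was -0.57 from the mean of both mutants and -0.44 from control, against -0.01 and -0.03 over all tested probe sets. Differences are on the scale of log2(quantile-normalised signal + 17.5), which understates the change of dim genes, while signals are given as deposited. Of the members, 28 were lower with wild-type EYA than with the mutants (53.1% of all tested probe sets were), and 22 were lower than control (54.2% of all). A difference of at least 0.5 below the mutants was found in 19 members (2.32% of all). At an adjusted p under 0.05 in limma, 15 members were called lower against the mutants (0.568% of all tested probe sets) and none higher (0.63%). Most of the lower calls were lost without the first or the second wild-type array, where the lone wild-type array takes its spread from the other groups. Those of scrib, Tl and His2Av were lost both ways. Their differences were then -1.04 and -1.11 (scrib), -0.77 and -0.77 (Tl), and -1.13 and -1.34 (His2Av). Against D493N alone 13 members were called lower (0.533%) and none higher (0.622%), and against E728Q alone 13 lower (0.355%) and none higher (0.355%). Against control, 15 members were called lower (10.9%) and 5 higher (11.4%). Fewer were called in either direction whichever of the 4 arrays was left out. The lower call of CG46339 and the higher call of spz were lost each time. That of Ets97D, lower, was kept only without the first control array. Called lower in both comparisons were 12 members, with CG31075, CG46339 and TwdlT called lower against control only, and CG6420, Rb97D and Yif1 against the mutants only. Several of these lay near the threshold by limma. The adjusted p of CG46339 against the mutants was 0.0513, and against control that of CG6420 was 0.0568 and that of Rb97D 0.0723. Ets97D, among the 12, had an adjusted p of 0.048 against the mutants. These contrasts chose the stretch, so nothing is read from the counts.

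**Figure D1:**
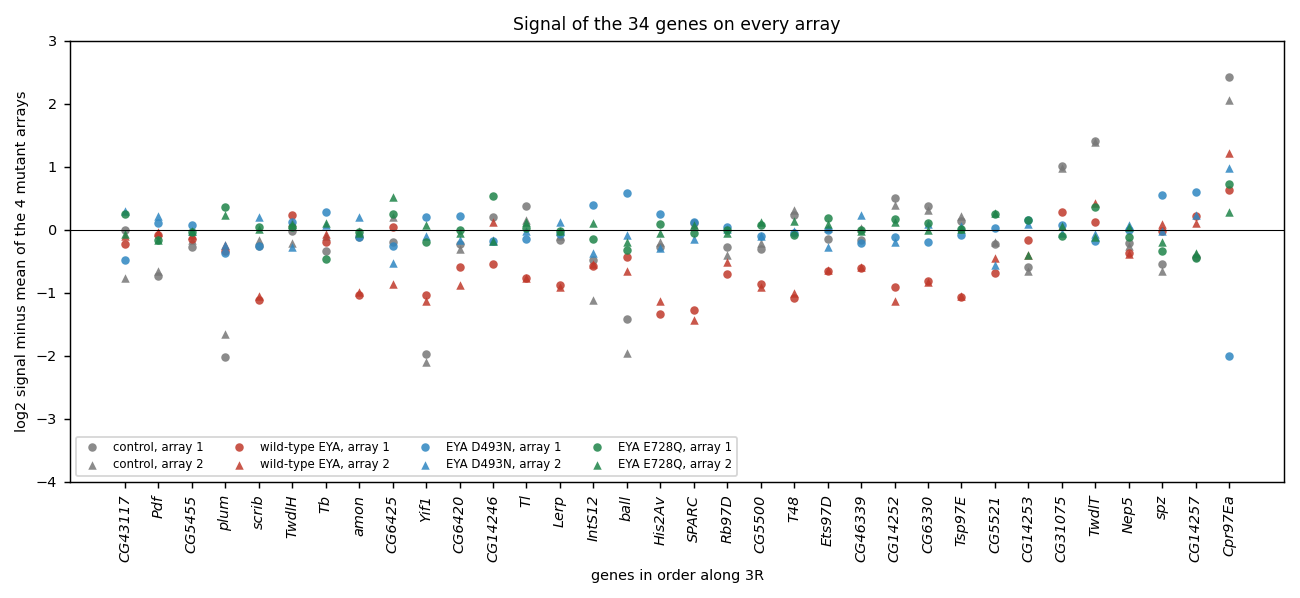
Log2 normalised signal of each of the 34 genes on each of the 8 arrays, minus the mean of that gene's 4 mutant arrays, with genes in order along 3R on the horizontal axis; circles are the first and triangles the second array of a group. Both wild-type EYA arrays (red) lie near -1 for scrib, amon, Yif1, His2Av, SPARC, T48 and Tsp97E, while the controls (grey) lie near the mutants for most of these genes and near -2 for Yif1.

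SPARC was the brightest member, with control signals of 7633 and 6996, against 2679 and 2271 with wild-type EYA, 7069 and 6278 on the D493N arrays and 6373 and 6781 on the E728Q arrays. Both wild-type arrays were lower than the 6 others by a wide margin, and the control and mutant arrays overlapped. The wild-type signal was 33.8% of control and 37.4% of the mutants, a log2 difference of -1.44 (SE 0.10, 2 arrays a group) from control and of -1.34 (SE 0.09) from the mutants. His2Av had signals of 2104 and 2056 in the controls, 953 and 1058 with wild-type EYA, 2954 and 2096 on the D493N arrays and 2674 and 2369.9 on the E728Q arrays. The wild-type arrays were again the lowest, and the 2 D493N arrays were farther apart than the arrays of any other group. The difference for His2Av was -1.004 (SE 0.16) from control and -1.24 (SE 0.14) from the mutants, or 48.4% and 39.9% of their signal.

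Tl had control signals of 2600.4 and 2043, and signals of 1108 and 1055 with wild-type EYA, 1774 and 1986 on the D493N arrays and 1976 and 2093 on the E728Q arrays. Here the wild-type arrays were lowest, and the mutant arrays were level with or below the lower control array except for the second E728Q array. The log2 difference was -1.03 (SE 0.09) from control and -0.77 (SE 0.08) from the mutants. For scrib the controls read 1836 and 1823, wild-type EYA 977 and 987, D493N 1841 and 2581, and E728Q 2233 and 2176. Both wild-type arrays were far below all others, and the first D493N array was level with the controls, with differences of -0.86 (SE 0.13) from control and -1.07 (SE 0.11) from the mutants. For amon the controls read 3855 and 3814, wild-type EYA 1894 and 1871, D493N 3675 and 4763, and E728Q 3872 and 3844. The controls lay within the range of the mutants, and wild-type EYA was at 49.1% of control and 46.6% of the mutants, differences of -0.94 (SE 0.10) and -1.01 (SE 0.09).

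Among the other genes with a role in membranes and secretion, Tsp97E, a tetraspanin, had signals of 3568 and 3521 in the controls, 1453 and 1403 with wild-type EYA, 2908 and 3382 on the D493N arrays and 3164 and 3109 on the E728Q arrays. The wild-type signal was 40.3% of control and 45.5% of the mutants. Lerp, the receptor that sorts lysosomal enzymes, read 1872 and 1818 in the controls, 1093 and 1032 with wild-type EYA, 1999.6 and 2319 on the D493N arrays and 2042 and 2035 on the E728Q arrays. As for Tsp97E, both wild-type arrays were below the 6 others, at 57.6% of control and 50.6% of the mutants. T48, a transmembrane protein that acts in apical constriction during gastrulation, was dimmer, at 352 on both controls, 127 and 135 with wild-type EYA, 287 and 288 on the D493N arrays and 273 and 319 on the E728Q arrays. Its wild-type signal was 37.2% of control and 44.9% of the mutants, and its mutant arrays were all below the controls.

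CG14252 had the most negative difference from control of the members, with signals of 389 and 344 in the controls, 135 and 112 with wild-type EYA, 252 and 235 on the D493N arrays and 302 and 291 on the E728Q arrays. The log2 differences of CG14252 were -1.47 (SE 0.13) from control and -1.02 (SE 0.11) from the mutants, and its mutant arrays lay between the other groups. CG6330, a uridine phosphorylase, read 2899.8 and 2570.2 in the controls, 1207 and 1139.8 with wild-type EYA, 1919.6 and 2381 on the D493N arrays and 2316 and 2149 on the E728Q arrays. Its order was the same, with wild-type EYA lowest at 42.9% of control and the mutants between. CG5500 read 536 and 545 in the controls, 351 and 337 with wild-type EYA, 647 and 635 on the D493N arrays and 711 and 726 on the E728Q arrays. In CG5500 the mutants were above the controls, so the difference of wild-type EYA from the mutants, -0.88 (SE 0.08), was larger than that from control, -0.62 (SE 0.09).

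Ets97D, the fly homologue of the ETS factor GABP alpha, had signals of 242 and 263 in the controls, 163 and 160.2 with wild-type EYA, 269.7 and 219.9 on the D493N arrays and 303 and 283 on the E728Q arrays. Its wild-type arrays were the lowest, at 63.9% of control and 60.0% of the mutants. Rb97D, an RNA-binding protein, read 1143 and 979 in the controls, 835 and 912 with wild-type EYA, 1449.9 and 1435 on the D493N arrays and 1379 and 1322 on the E728Q arrays. In Rb97D the 3 kinds of group did not overlap, with wild-type EYA lowest, controls between and mutants highest, and the difference from control was -0.26 (SE 0.09) against -0.61 (SE 0.08) from the mutants. IntS12, a subunit of the Integrator complex, was dim, with a mean signal of 162, and differed by 0.24 (SE 0.28) from control and by -0.56 (SE 0.24) from the mutants. Of the remaining members between scrib and CG5521, CG6420 differed from the mutants by -0.73 (SE 0.13), CG46339 by -0.60 (SE 0.12) and CG5521, a Ral GTPase-activating protein homologue, by -0.57 (SE 0.17). The members named after their values were seen numbered 10, among them Yif1, Rb97D, IntS12, CG6420, CG46339 and CG5521.

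Yif1, ball and plum were higher with every EYA form than in control. Yif1, which acts in traffic from the endoplasmic reticulum to the Golgi, read 886 and 753 in the controls, 1679 and 1487 with wild-type EYA, 4019 and 3383 on the D493N arrays and 3075 and 3664 on the E728Q arrays. The 3 kinds of group did not overlap, and the wild-type signal was 193% of control but 44.8% of the mutants, a log2 difference of 0.95 (SE 0.13) from control and of -1.08 (SE 0.11) from the mutants. Its shortfall from the mutants was thus of the size seen for scrib and amon, while its difference from control had the opposite sign. The histone kinase gene ball read 119 and 75.6 in the controls, a mean of 229.98 with wild-type EYA with 209.96 on the lower array, 542 and 329.6 on the D493N arrays and 274 and 299.6 on the E728Q arrays. The order was that of Yif1 with a wider spread, and the wild-type signal of ball was 236% of control and 63.6% of the mutants. For plum, an immunoglobulin superfamily protein of axon pruning that precedes scrib in gene order, the controls read 136 and 173, wild-type EYA 467 and 489, D493N 473 and 512 and E728Q 788 and 713. The wild-type arrays of plum were next to the D493N arrays, and the differences were 1.55 (SE 0.13) from control and -0.28 (SE 0.12) from the mutants.

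At the ends of the stretch the members did not share the difference from the mutants. Pdf, the neuropeptide of the clock neurons, read 1669 and 1650.4 in the controls, 2553 and 2495 with wild-type EYA, 2930.3 and 3302 on the D493N arrays and 2485 and 2449 on the E728Q arrays. The wild-type arrays of Pdf lay between the mutants, with a difference of -0.05 (SE 0.06) from them and of 0.64 (SE 0.07) from control. CG5455 differed from the mutants by -0.11 (SE 0.06) and CG43117, at a mean signal of 60.5, by -0.16 (SE 0.31). At the far end spz, which encodes the Toll ligand Spätzle, read 1252 and 1088 in the controls, 1756 and 1809 with wild-type EYA, 2671 and 1856 on the D493N arrays and 1441 and 1569.9 on the E728Q arrays. The wild-type arrays of spz were above both controls and inside the range of the mutants, with differences of 0.63 (SE 0.16) and 0.03 (SE 0.14). So the receptor gene Tl and the ligand gene spz, both in the stretch, had wild-type signals of 46.6% and 152% of control.

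The cuticle and peptidase genes of the stretch formed no single pattern. TwdlT, of the Tweedle family of cuticle proteins, read 801 and 745 in the controls, 309 and 383 with wild-type EYA, 258 and 278 on the D493N arrays and 379 and 264 on the E728Q arrays. All 6 EYA arrays were below both controls, and wild-type EYA was at 117% of the mutants, so TwdlT was lower with every form of EYA. CG31075, an aldehyde dehydrogenase homologue, had the same order, with log2 differences from control of -0.83 (SE 0.11) for wild-type EYA, -0.98 (SE 0.11) for D493N and -1.01 (SE 0.11) for E728Q. Cpr97Ea, a cuticle protein and the last gene, read 1952 and 1398 in the controls, 534 and 778 with wild-type EYA, 72.3 and 707 on the D493N arrays and 585 and 422 on the E728Q arrays. The first D493N array stood far below the second, and the difference of Cpr97Ea from the mutants was 0.93 (SE 0.65) with all arrays, 0.18 without the first D493N array and 1.67 without the second. TwdlH and Tb, the other Tweedle genes above the threshold, were dim at mean signals of 79.3 and 42.8, and they differed from the mutants by 0.18 (SE 0.20) and -0.13 (SE 0.27). Of the 16 annotated Tweedle genes of the stretch 15 had a probe set, and 12 of those were at or below the threshold. Nep5, a neprilysin-like peptidase, CG14257, CG14253, CG6425 and CG14246 lay between mean signals of 49.9 and 320.1 and differed from the mutants by -0.40 to 0.16.

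**Figure D2:**
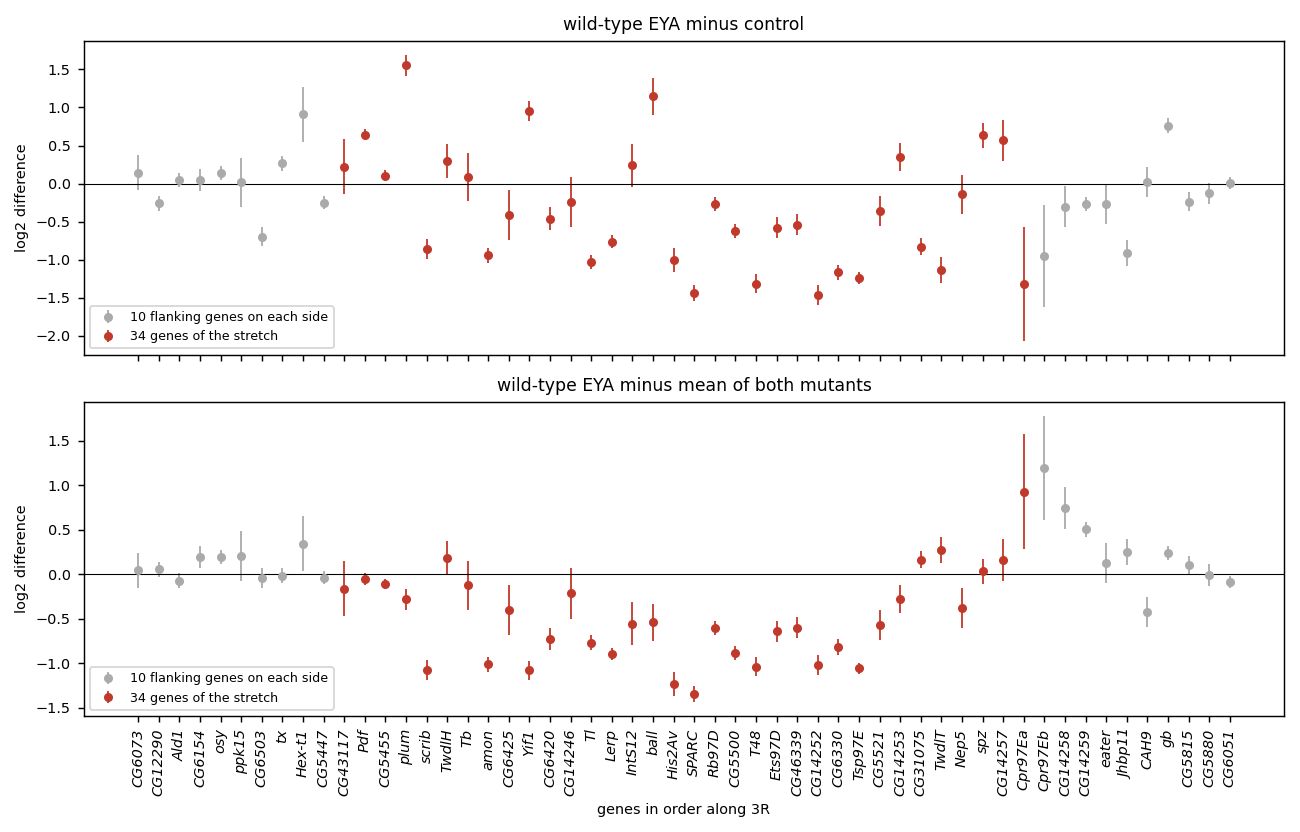
Log2 difference of wild-type EYA from control (upper) and from the mean of both mutants (lower) for the 34 genes (red) and the 10 measured genes on each side (grey), in order along 3R; bars are 1 SE, from 2 arrays a group. In the lower panel 22 neighbouring members from Tb to CG14253 are all below 0, and the flanking genes before the stretch lie between -0.07 and 0.34.

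The differences from the mutants were followed along gene order. Between scrib and CG5521, a span of 23 members set by eye after their values were seen, the median difference from the mutants was -0.77, and 22 of the 23 were below 0; TwdlH was above. The 4 members before scrib had a median of -0.14 and the 7 after CG5521 one of 0.16. Counted without that span, the longest run of members below 0 was 22 genes, from Tb to CG14253. Just outside the stretch, CG5447 differed from the mutants by -0.04 (SE 0.07), Hex-t1 by 0.34 (SE 0.31) and tx by -0.02 (SE 0.09). Just after it, Cpr97Eb differed by 1.19 (SE 0.58), CG14258 by 0.75 (SE 0.23) and CG14259 by 0.50 (SE 0.08), the opposite direction. The signals of Cpr97Eb were 3558.5 and 2974 in the controls, 1439 and 1785 with wild-type EYA, 154 and 1173 on the D493N arrays and 1393 and 1036 on the E728Q arrays, so the low first D493N array seen in Cpr97Ea was also seen in its neighbour. The medians of the 10 measured genes before the stretch were 0.05 from the mutants and 0.04 from control, and those of the 10 after it 0.18 and -0.25. Over the 2113 other measured genes of 3R the medians were -0.01 and -0.03.

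**Figure D3:**
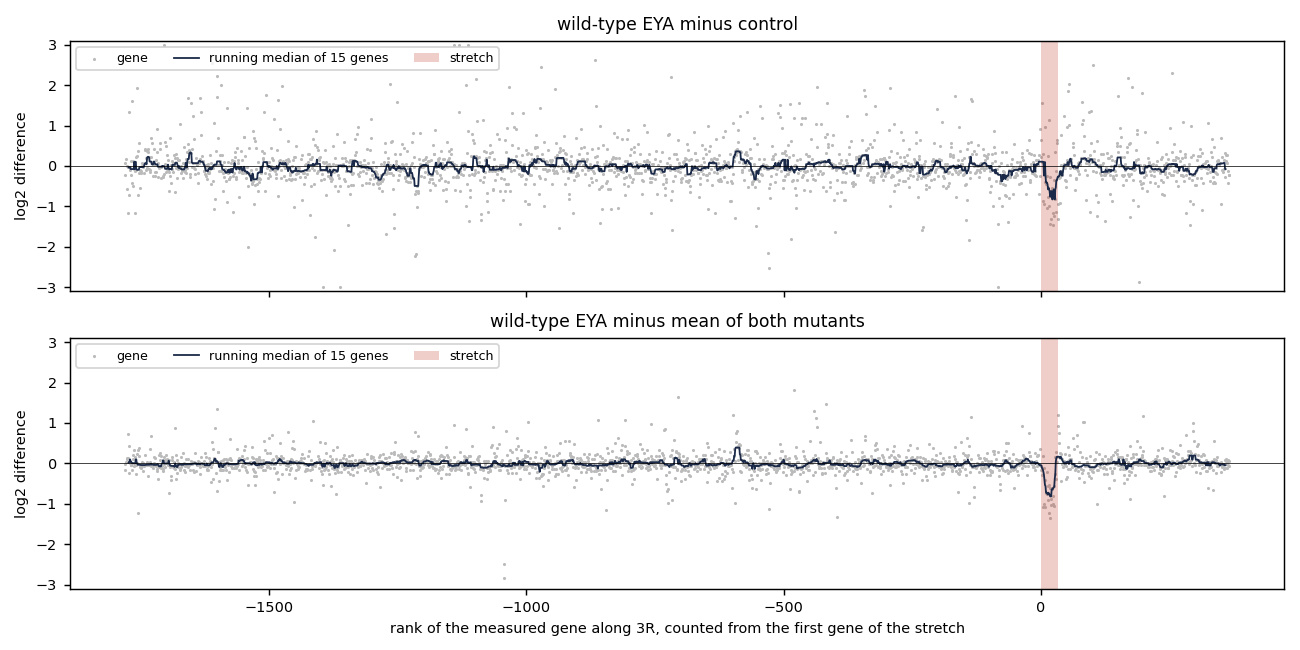
Log2 difference of wild-type EYA from control (upper) and from the mean of both mutants (lower) for all 2147 measured genes of 3R by rank, with 0 at the first gene of the stretch; the line is the running median of 15 genes, and 7 genes beyond 3 in the upper panel are drawn at its edge. The running median reaches -0.82 from the mutants inside the shaded stretch and stays between -0.21 and 0.39 outside it.

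A running median over 15 measured genes was lowest inside the stretch in both comparisons, at -0.83 from control and -0.82 from the mutants. Outside the stretch it ran from -0.50 to 0.36 against control and from -0.21 to 0.39 against the mutants. The 64 probe sets called lower with wild-type EYA than with the mutants comprised the 15 members, 1 further probe set of scrib, 16 elsewhere on 3R, 10 on 2L, 5 on 2R, 10 on 3L, 1 on X, 1 on chromosome 4 and 5 with no single gene. As the stretch was picked for this, its place in that list is a description.

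Of the 23 members from scrib to CG5521, 18 had a mean signal of at least 200. Their wild-type signal was 37.4% to 63.6% of that with the mutants, with a median of 50.6%, and the log2 differences ran from -1.34 to -0.54 with an SD over genes of 0.24. The same 18 genes differed from control by -1.47 to 1.15, with an SD of 0.72. Over all tested probe sets the SDs were 0.26 from the mutants and 0.55 from control, and the span itself was set on the differences from the mutants, so nothing is read from the narrower range. The 5 dimmer members of the span (TwdlH, Tb, CG6425, CG14246 and IntS12) had a median difference from the mutants of -0.22, on a scale that understates dim genes. Yif1 and ball were above control yet below the mutants on both wild-type arrays.

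**Figure D4:**
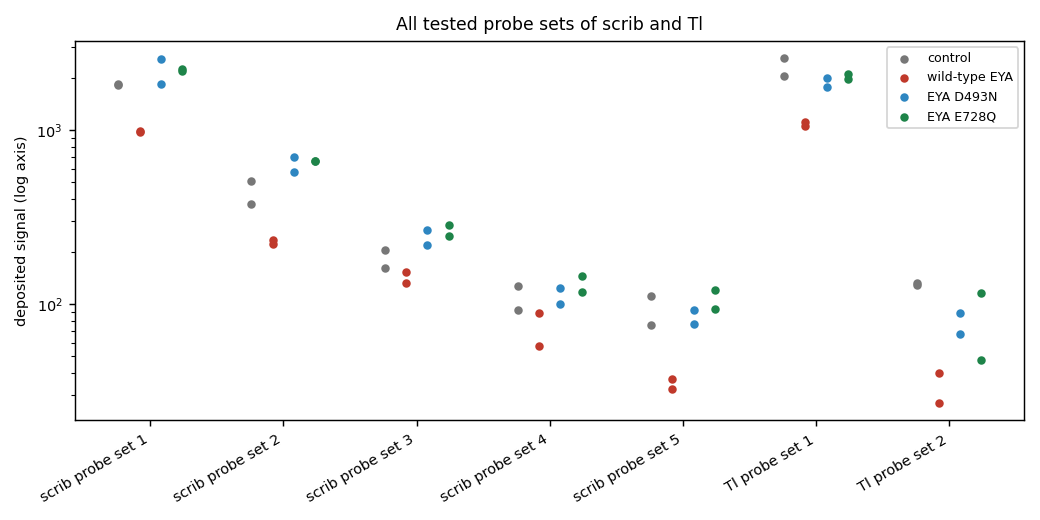
Deposited signal (log axis) on each array for the 5 tested probe sets of scrib and the 2 of Tl, brightest first; each dot is 1 array. Both wild-type EYA arrays (red) are below both arrays of every other group for all 7 probe sets.

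Probe sets that the choice of members did not use gave values for the same RNA. The 4 other scrib probe sets had mean signals of 492.6, 208, 106 and 79.9, and they differed from the mutants by -1.39, -0.73, -0.62 and -1.08 and from control by -0.90, -0.30, -0.49 and -1.04. The second scrib probe set read 377 and 511 in the controls, 222 and 233 with wild-type EYA, 575 and 697 on the D493N arrays and 666 and 661 on the E728Q arrays, so its wild-type arrays were the lowest too. The second Tl probe set read 129 and 132 in the controls, 40.3 and 27.1 with wild-type EYA, 89.0 and 66.8 on the D493N arrays and 116 and 47.9 on the E728Q arrays. Its wild-type arrays were also the lowest, and it differed by -1.52 (SE 0.35) from control and by -0.85 (SE 0.30) from the mutants. These probe sets read the same arrays as the brightest ones and are no separate samples. Among the 30 genes at or below the threshold, with mean signals of 3.89 to 36.4, 20 were below the mutants and the median difference was -0.27 from the mutants and -0.08 from control. The share over all probe sets of that unfiltered fit is not given. At such signals arrays of a group could lie far apart, as in the controls for CG31076 (9.27 and 38.4), so nothing is read from these values. The probe sets of CG5455, Tl, Lerp, ball and CG14253 end in s_at, the array maker's mark for probes that can match several transcripts, so their signals may hold RNA of other genes.

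The mutant groups were set beside control on the same 2 control arrays that served the wild-type comparison, so the values below stand side by side and support nothing about each other. The median difference of the members from control was 0.16 for D493N and 0.19 for E728Q, where it was -0.44 for wild-type EYA. With D493N, 6 members were called lower than control (13.9% of all tested probe sets), namely Tl, CG14252, CG6330, CG31075, TwdlT and Cpr97Ea. Another 8 were called higher (14%), namely Pdf, CG5455, plum, Yif1, ball, Rb97D, CG14253 and spz. Fewer members were called in either direction with D493N without the first or the second control array. The calls of CG5455, CG6330, CG14253 and Cpr97Ea were lost both ways. The share of all tested probe sets called in those fits is not given, so nothing is read from the fewer calls. With E728Q, CG31075 and TwdlT were called lower (11.7%), and Pdf, plum, Yif1, ball, CG5500 and Rb97D were called higher (11.8%). The calls of CG5500 and Rb97D were lost whichever of the 4 control and E728Q arrays was left out. With all arrays in the fit SPARC, scrib, amon and His2Av were not called in either mutant; their differences from control were -0.10, 0.18, 0.12 and 0.21 with D493N and -0.08, 0.24, 0.03 and 0.25 with E728Q, where they were -1.44, -0.86, -0.94 and -1.004 with wild-type EYA. With D493N, scrib (0.41) and amon (0.27) were called higher than control without the first D493N array, and His2Av (0.49) without the second. In those fits the lone D493N array takes its spread from the other groups. On normalised values, 20 members had both wild-type arrays below both controls (35.5% of all tested probe sets), 20 had them below all 4 mutant arrays (10.6%) and 16 had them below all 6 other arrays (5.59%). Both wild-type arrays were above both controls in 9 members (29.8%) and above all 4 mutant arrays in 1 (9.14%). All 4 mutant arrays were above both controls in 13 members (22.5%) and below both in 8 (24.5%).

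The comparison of D493N with E728Q was tested. Its difference comes from the mutant arrays, but its SE and p use the spread within all groups, wild-type and control included. The stretch was not chosen on this difference, though the mutant arrays entered the choice through the difference of wild-type EYA from them. No member passed an adjusted p under 0.05 in either direction in limma (0.0799% of all tested probe sets were lower and 0.0888% higher with D493N), and at an unadjusted p under 0.05 there were 6 of 34 (13.1% of all). The median absolute difference between the mutants was 0.15 over the members and 0.13 over all tested probe sets, 27 of the 34 members differed by less than 0.5, and the median SE was 0.14. The smallest adjusted p was that of plum, 0.136 by limma, with signals of 473 and 512 with D493N against 788 and 713 with E728Q, a difference of -0.61 (SE 0.13). The largest difference was -1.02 (SE 0.75, adjusted p = 0.598 by limma) in Cpr97Ea, whose D493N arrays were far apart. For spz it was 0.54 (SE 0.16, adjusted p = 0.232 by limma). Without the second D493N array, plum (-0.67), Cpr97Ea (-2.51) and spz (0.82) passed. With 1 D493N array left, that group takes its spread from the other groups, so these calls ignore how far the D493N arrays differ. Without the first D493N array the difference of Cpr97Ea had the opposite sign (0.47). A difference that misses the threshold with 2 arrays a group does not show that both mutants act alike.

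Genes elsewhere in the genome that share a pathway, process or gene family with members of the stretch were counted from lists drawn up for this description. The Toll pathway list also held other receptors of the Toll family and spz5. Of its 16 tested genes, 3 fell with wild-type EYA against control (10.9% of all tested probe sets) and 5 rose (11.4%) at an adjusted p under 0.05 by limma. Those that fell were spz5, a neurotrophin of the Spätzle family (-0.74), SPE, the protease that activates Spätzle (-0.48), and cact, the inhibitor that holds NF-kappaB factors in the cytoplasm (-0.48). Those that rose were the kinase gene pll (2.02), the protease gene grass (1.25), dl, which encodes an NF-kappaB factor (0.67), the adaptor gene Myd88 (0.48) and the receptor gene Tollo (0.43). The calls of dl and Myd88 were lost whichever of the 4 arrays was left out, with adjusted p of 0.0536 to 0.153 by limma, and that of Tollo was lost without either control array or without the first wild-type array (adjusted p = 0.0574 to 0.125). Against the mutants none of the 16 passed (0.568% of all tested probe sets were lower and 0.63% higher), with 1 at an unadjusted p under 0.05; without the second D493N array nec and dl passed (-0.28 and 0.45). Among 11 tested genes of epithelial polarity, aPKC fell (-0.85) and par-6 rose (0.37) against control, and none passed against the mutants by limma, with 0 at an unadjusted p under 0.05. Among 12 tested genes of prohormone processing and of peptide hormones, Ilp2 (0.57), Pal2 (0.49) and 7B2 (0.27) rose against control. The call of 7B2 was lost whichever array was left out, at differences of 0.25 to 0.30. None of the 12 passed against the mutants, with 2 at an unadjusted p under 0.05; Phm (-0.30 and -0.32) passed without the first or the second D493N array, and Dh31 (0.34) without the first. None of 8 tested genes of histone exchange passed against control or against the mutants by limma, with 0 at an unadjusted p under 0.05 in either. The share of all tested probe sets at an unadjusted p under 0.05 is not given for these comparisons, so nothing is read from the unadjusted counts.

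Of 12 tested genes of the basement membrane, where SPARC acts, LanB1 (-0.45) and LanB2 (-0.46) fell against control with wild-type EYA. Both calls were lost whichever of the 4 arrays was left out. The mutants were below control too, by -0.73 (D493N) and -0.75 (E728Q) for LanB1 and by -0.68 and -0.16 for LanB2. Against control 6 of the 12 were called lower with D493N (13.9% of all tested probe sets) and 1 with E728Q (11.7%). Against the mutants Col4a1 and LanB1 were called without the second D493N array (0.36 each). At an unadjusted p under 0.05 by limma there were 6 of the 12 against control and 2 against the mutants, again without a share over all tested probe sets. LanA, the alpha subunit that joins LanB1 and LanB2 in laminin, read 939.96 and 952 in the controls and 2999 and 2699 with wild-type EYA. It read 563 and 796 on the D493N arrays and 811 and 623 on the E728Q arrays. The wild-type arrays of LanA were far above all 6 others, a direction opposite to that of SPARC. LanA rose by 1.61 (SE 0.17, adjusted p = 0.000217 by limma) from control and by 2.10 (SE 0.15, adjusted p = 0.000342) from the mutants, the only gene of these lists that passed against the mutants with all arrays in the fit. Leaving out 1 array at a time gave 1.55 to 1.66 from control and 1.98 to 2.22 from the mutants, and LanA passed each time.

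Markers of cell types of the head were set beside these values, and single genes of the haemocyte, fat body and glia lists went different ways. The summed signal of the 6 haemocyte markers was 4455 to 5162 in the controls, 4706 to 4781 with wild-type EYA, 4302 to 5123 with D493N and 4649.6 to 4819 with E728Q, and most of it came from crq (mean signal 2663). Hml was lower with wild-type EYA (789 and 649) than in the controls (1106 and 1002), and it was low in the mutants too (616 to 778). He, a dim gene, was at 37.8 and 42.2 with wild-type EYA against 70.6 and 79.8 in the controls, with 27.9 to 75.3 in the mutants. NimC1 was higher with wild-type EYA (457 and 425) than in the controls (117 on both), as it was in the mutants (356 to 396).

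For the 5 head fat body markers the sums were 61346 to 66599 in the controls, 52041 to 62036 with wild-type EYA, 56514 to 68324 with D493N and 54769 to 55722 with E728Q, mostly from Yp1 and Yp2 (mean signals of 29486 and 22605). Of the others, fit was lower with wild-type EYA (4133 and 2968) than in the controls (6281 and 5272) and lower still in the mutants (1073 to 1997). Lsp2 went the other way, with 4483 and 2934 against 1226 and 1423 in the controls, and tsl was at 1169 and 989 against 1654 and 1485.

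For the 4 neuron markers the sums were 6519 to 7013 in the controls, 5631 to 6404 with wild-type EYA, 5735 to 6719 with D493N and 6461 to 6749 with E728Q. Among them Rdl was lower with wild-type EYA (925 and 839.8) and in the mutants (683 to 846) than in the controls (1245 and 1135). Of the 2 glia markers, moody read 3365 and 2794 in the controls and 6235 to 8277 on the EYA arrays, whereas repo read 1965 and 1767 in the controls and 1528 to 1706 on the EYA arrays. No marker named here was at 0, and the part of these cell types in the members' differences was not tested.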

How the data were processed

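The authors deposited array intensities as Affymetrix GCOS signal per probe set, and the tool is named in the submitters' processing notes; every array has a median signal of 100. The data hold 18952 probe sets, of which 183 are array controls. Gene symbols came from the platform annotation (13647 probe sets with 1 symbol, 402 with several, 4903 with none) and gene order from the RefSeq table of the assembly Release 6 plus ISO1 MT; 13544 probe sets matched by gene ID. No build is named for the probe annotation, so no coordinates are printed.

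Intensities of the 18769 non-control probe sets were quantile-normalised and log2-transformed after adding 17.5, the 25th percentile of the deposited values. The brightest 60% of these by mean signal (11261, lowest mean 38.1) were fitted with limma 3.58.1 in R 4.3.3 (lmFit, eBayes with trend), all 8 arrays in 1 model with a coefficient per group, 4 residual degrees of freedom, two-sided tests and Benjamini-Hochberg adjustment over all tested probe sets. The procedure was tested on simulated data. Tables were joined with pandas 2.3.3 in Python 3.11.15. Having 2 arrays in each group limits how precise any value can be.

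The members, lists and tests were chosen with earlier results of these data known. Named genes were SPARC, His2Av, Tl, scrib and amon, the 12 members with the lowest and the 6 with the highest mean of both wild-type differences, the 3 on either side of each edge, the 3 brightest, the 2 on either side of the level threshold and members of a family with several members. That gave 24 members, and the 10 others were named after their values were seen. Alternatives were deposited values without normalisation, pseudocounts of 1 and 64, no filter on dim probe sets, fits on the compared groups only, replicate number as a block, the mean over a gene's probe sets, normalisation without the members, each array left out in turn, and flanks of 20 genes. A planned grouping by strand and a planned promoter search were not run.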

Additional observations from a re-analysis of the deposited data

How the results depend on the processing

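The members' counts and medians kept their direction under the alternatives run, except where given here. The median difference of wild-type EYA from control was -0.51 with a pseudocount of 1 and -0.35 with 64, and that from the mutants -0.61 and -0.47. With deposited values the median difference of D493N from E728Q was 0.00948, against -0.02, and that of D493N from control 0.23. With the compared groups alone, 3 members were called lower with D493N than control, and 4 lower and 12 higher with E728Q. The share of all tested probe sets called in those fits is not given, so nothing is read from these counts. The median difference of E728Q from control was 0.22 with a pseudocount of 1 and 0.15 with 64. With 20 flanking genes the medians were -0.0945 from control after the stretch, and 0.0126 and 0.0537 from the mutants before and after it. The causes were not tested.

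Leaving out 1 array at a time gave, against control, 13 to 14 lower and 3 to 4 higher calls and medians of -0.55 to -0.43 for wild-type EYA, 2 to 7 lower, 5 to 11 higher and 0.11 to 0.18 for D493N, and 2 lower, 4 to 5 higher and 0.17 to 0.22 for E728Q. The share of all tested probe sets called in these fits is not given, so nothing is read from this paragraph's call counts. Wild-type EYA against the mutants gave medians of -0.66 to -0.41. The fewest lower calls came without the first and the second wild-type array, and Cpr97Ea was called higher without the second D493N array. D493N against E728Q gave 0 to 2 lower and 0 to 1 higher calls and medians of -0.0586 to -0.00863.

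Replicate numbers did not pair the arrays: the deviations of same-numbered arrays correlated between -0.144 and 0.094. With replicate number as a block, slightly fewer members were called lower than the mutants and slightly more lower than control. For the genes named by rule, over all contrasts and alternatives, 1423 values kept their side of the threshold, 48 lost a call and 17 gained one. Dim members have signals close to background, where 2 arrays a group leave SEs of about 0.3.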

Other observations

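Outside the stretch, the running median of 15 measured genes along 3R against the mutants was highest, at 0.39, in a window from CG11779 to CG31221, which was picked after its values were seen. In that window nanos, which encodes a translational repressor of the germ line, was higher with wild-type EYA than with the mutants by 1.19, Delta, which encodes a Notch ligand, by 0.81 and vib, which encodes a phosphatidylinositol transfer protein, by 0.75, while myd was lower, at -0.97.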
